A study of Homo sapiens with 4 samples.

Results

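FOXK2 binding was examined at the genes of the RUNX and nuclear factor I (NFI) transcription factors in OVCAR5, an established ovarian cancer cell line. The set holds 8 genes, chosen by name: RUNX1, RUNX2, RUNX3, CBFB, NFIA, NFIB, NFIC and NFIX. Its peaks are all rows of the FOXK2 ChIP-seq peak lists that the authors assigned to these genes as the nearest transcription start site (TSS), which gave 21 of 12471 peaks in replicate 1 and 37 of 27281 peaks in replicate 2. The 2 replicates were of a single condition, cells grown in RPMI medium with serum, with no transgene, knockdown or drug named in the labels. The labels call the line a high-grade serous ovarian cancer cell from ascites, an identity that was not tested here because peak lists hold no expression values. Matching input libraries are labelled but were not analysed here, so no peak was set against input.

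RUNX proteins are sequence-specific factors of the runt family that pair with CBFB, a subunit that does not contact DNA itself and strengthens the binding of its partner. RUNX1 is best known from blood formation, RUNX2 from bone formation and RUNX3 from neurons and T cells, and all are also expressed in epithelia. Each RUNX gene is transcribed from a distal and a proximal promoter. The NFI proteins NFIA, NFIB, NFIC and NFIX bind DNA as dimers and act in the development of brain, lung, tooth and muscle. FOXK2 is a forkhead factor, for which TGTTTAC is the known binding motif.

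RUNX1 had the most peaks of the 8 genes in each list. It was assigned 12 peaks in replicate 1 and 15 in replicate 2, against 2 and 5 for RUNX2, 2 and 4 for NFIX, 1 and 6 for NFIB, 1 and 3 for NFIA, 1 and 3 for NFIC, and 2 and 1 for CBFB. RUNX3 had no peak in either list. Thus 7 of 8 members had a peak in both replicates, where 28.7% of 19974 protein-coding genes did (31.4% had one in replicate 1, 51.9% in replicate 2 and 54.6% in either). The members were chosen with earlier results of these data known, so they are not an unselected set of genes. Because peaks were assigned to the nearest TSS, a gene with more sequence nearest to its TSS can be assigned more peaks. Whether this affected the counts was not tested. The median RefSeq length of the 8 genes was 166 kb.

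**Figure D1:**
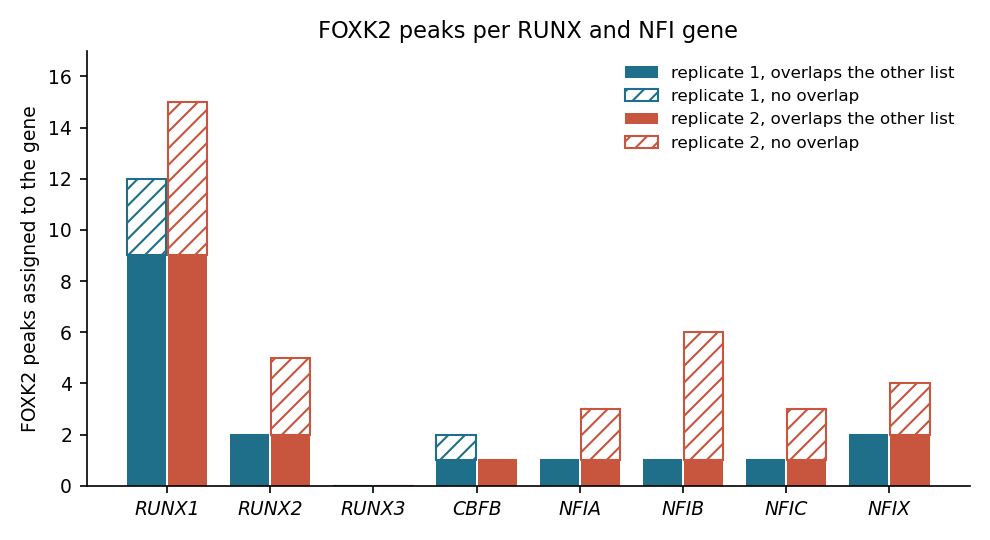
Number of FOXK2 peaks assigned to each gene (vertical axis) in replicate 1 and replicate 2, with filled bars for peaks that overlap a peak of the other list by at least 1 bp and hatched bars for those that do not. RUNX1 has 9 overlapping peaks, RUNX2 and NFIX have 2 each, CBFB, NFIA, NFIB and NFIC have 1 each, and RUNX3 has none.

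The sites that both replicates shared and that carried an exact TGTTTAC, and the strong NFIA promoter site that lacked it, are shown to let the base content be read beside the values. All are the plus strand of hg38 from 5′ to 3′. The first 5 are the bases covered by the peaks of both lists, with TGTTTAC or its reverse complement in capitals. In the order given they are chr6:45445929-45446139, chr6:45555945-45556155, chr21:34865407-34865582, chr19:13026631-13026817 and chr9:14423932-14424122. The last is chr1:61077104-61077226, the part of the peak before the RefSeq transcript start, with the reverse complement of the shorter core TGTTTA in capitals.
RUNX2 intronic site: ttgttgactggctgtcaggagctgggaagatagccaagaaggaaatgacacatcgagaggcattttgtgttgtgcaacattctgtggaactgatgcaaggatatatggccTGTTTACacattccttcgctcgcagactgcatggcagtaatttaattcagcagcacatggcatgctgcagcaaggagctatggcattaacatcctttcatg
RUNX2 downstream site: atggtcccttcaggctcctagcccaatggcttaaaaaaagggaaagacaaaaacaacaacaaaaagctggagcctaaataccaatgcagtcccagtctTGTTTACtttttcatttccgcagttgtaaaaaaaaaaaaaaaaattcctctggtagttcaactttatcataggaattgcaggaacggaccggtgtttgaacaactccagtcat
RUNX1 intronic site: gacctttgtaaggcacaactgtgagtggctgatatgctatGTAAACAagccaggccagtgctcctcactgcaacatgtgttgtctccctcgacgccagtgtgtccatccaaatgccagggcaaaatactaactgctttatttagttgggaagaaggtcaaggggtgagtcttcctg
NFIX intronic site: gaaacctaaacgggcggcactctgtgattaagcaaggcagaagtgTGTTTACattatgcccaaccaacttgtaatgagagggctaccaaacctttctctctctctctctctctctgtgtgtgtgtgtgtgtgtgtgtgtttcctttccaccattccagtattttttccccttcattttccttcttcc
NFIB site: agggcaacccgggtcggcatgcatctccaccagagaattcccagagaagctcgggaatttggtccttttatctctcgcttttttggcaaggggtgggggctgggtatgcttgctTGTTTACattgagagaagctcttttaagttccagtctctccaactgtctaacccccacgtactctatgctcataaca
NFIA promoter site: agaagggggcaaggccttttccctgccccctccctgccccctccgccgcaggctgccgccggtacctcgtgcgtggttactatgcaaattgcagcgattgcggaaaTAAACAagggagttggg

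The strongest peak of the set lay in RUNX2, in intron 5 of 7 of transcript NM_001015051, 23457 bp downstream of the proximal TSS. Its peak score, which HOMER gave to each peak and which was ranked only within its own list, was 16.8 in replicate 1 (rank 438 of 12471, percentile 96.4) and 32.6 in replicate 2 (rank 450 of 27281, percentile 98.3). If 1 step of the score is 1 sequenced tag, the 95% Poisson interval of the score was 13.5 to 20.7 in replicate 1 and 28.4 to 37.2 in replicate 2, which covers counting error only. The replicate 1 peak lay wholly within the replicate 2 peak, with centres 17 bp apart, and TGTTTAC was centred 8 bp and 25 bp from the centres. The other RUNX2 peak found in both lists, 133473 bp downstream of the same TSS and intergenic by the deposited annotation, scored 7.55 and 15.3 (percentiles 69.0 and 88.4), with its heptamer 4 bp and 3 bp from the centres. No peak lay near either RUNX2 start: the nearest centre was 23.8 kb from a RefSeq start in replicate 1 and 23.7 kb in replicate 2. Replicate 2 alone had 3 more RUNX2 peaks, at percentiles of 3.65, 31.9 and 46.1.

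At NFIA, both lists placed a peak on the promoter, at -65 bp from the TSS in replicate 1 and -58 bp in replicate 2. It scored 14.5 in replicate 1 (rank 651, percentile 94.5) and 28.4 in replicate 2 (rank 616, percentile 97.7). The centres lay 7 bp apart. This was the only promoter of the set with a peak in both replicates. It held no TGTTTAC within 100 bp of the centre but did hold the core TGTTTA, shown above. Promoter is used here as the class promoter-TSS of the deposited annotation. In replicate 2, NFIA had further peaks at -27298 bp and 59469 bp from the nearest TSS (percentiles 47.7 and 23.4), and 2 more within the gene were assigned to its antisense transcript NFIA-AS1 (percentiles 39.4 and 12.6). None of these had a counterpart in replicate 1.

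The RUNX1 peaks formed a series along the locus rather than a single site. They spanned 430 kb in both replicates, from intron 3 of the proximal transcript NM_001001890 to intergenic sequence at -216337 bp from the distal TSS. In replicate 1, 6 peaks lay upstream of the distal TSS, 2 between the distal and the proximal TSS, which are 161 kb apart, and 4 downstream of the proximal TSS. In replicate 2 the numbers were 11, 1 and 3. The median distance between neighbouring RUNX1 peaks was 19.7 kb and 20.9 kb.

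**Figure D2:**
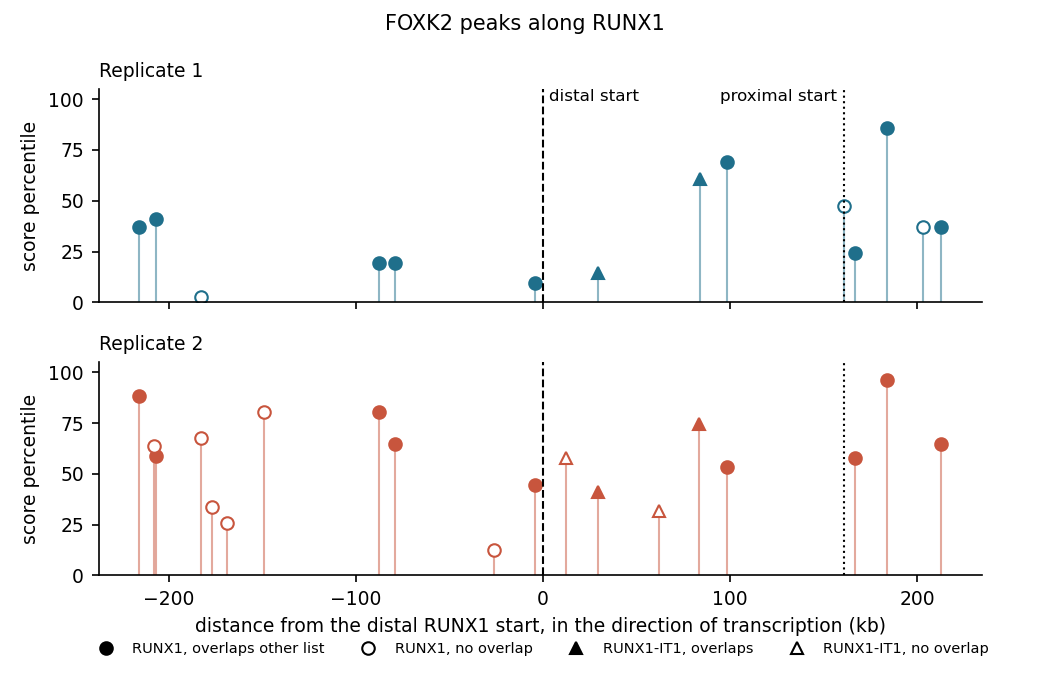
FOXK2 peaks along RUNX1 by distance from the distal start in kb (horizontal axis, positive in the direction of transcription) and by score percentile within the list (vertical axis), for replicate 1 (top) and replicate 2 (bottom). Circles are peaks assigned to RUNX1 and triangles those assigned to RUNX1-IT1, filled where a peak of the other list overlaps; the peak 184 kb from the distal start is the highest in both panels, and the 6 upstream peaks of replicate 1 reach at most 40.9 while those of replicate 2 reach 88.1.

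Within the RUNX1 series, the highest peak was in intron 2 of 5 of NM_001001890, 23178 bp downstream of the proximal TSS. It scored 10.4 in replicate 1 (rank 1682, percentile 86.0, Poisson interval 7.83 to 13.5) and 23.5 in replicate 2 (rank 1008, percentile 96.2, 20.0 to 27.5), and was the only RUNX1 peak with an exact TGTTTAC. The other RUNX1 peaks were of ordinary height: over all RUNX1 peaks the scores ran from 3.77 to 10.4 with a median of 5.28 in replicate 1, and from 4.46 to 23.5 with a median of 8.92 in replicate 2, where the medians of the whole lists were 5.85 and 7.29. The far upstream peaks at -216337 bp and -87751 bp had percentiles of 88.1 and 80.5 in replicate 2 and of 36.9 and 19.4 in replicate 1, a direction that 89.9% of all paired peaks shared.

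The RUNX1 promoters differed between the lists. A peak on the proximal promoter, -95 bp from the TSS, was called only in replicate 1, at a score of 5.85 (percentile 47.5), and the nearest replicate 2 peak centre was 6856 bp away. No peak centre fell within 1000 bp of the distal TSS, and the closest, at -4181 bp in replicate 1 and -4188 bp in replicate 2, had percentiles of 9.70 and 44.4. Besides the proximal promoter peak, 2 RUNX1 peaks of replicate 1 had no counterpart. At -183102 bp, however, a replicate 2 peak had its centre only 290 bp away, next to it without overlap, and the other was at 42883 bp. Of the 6 RUNX1 peaks found only in replicate 2, the one at -148934 bp had the highest score, 12.2 (percentile 80.5).

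The nearest-TSS rule left out further RUNX1 binding. In the long intron 2 of NM_001754, between the distal and the proximal promoter, 2 peaks of replicate 1 and 4 of replicate 2 were assigned to RUNX1-IT1, a noncoding transcript inside RUNX1. Both peaks of replicate 1 were overlapped in replicate 2. One scored 6.79 and 10.7 (percentiles 60.8 and 74.3) and the other 4.34 and 6.54 (percentiles 14.6 and 41.1), and each of them held TGTTTAC in both lists. With these peaks counted, the RUNX1 span held 14 peaks in replicate 1 and 19 in replicate 2.

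RUNX1 stood near the top of all genes by number of peaks. Only 1 gene had more in replicate 1, the pseudogene PABPC1P2 with 13, and 4 genes had more in replicate 2, with up to 17 for CBLB. At least 12 peaks in replicate 1 were assigned to 0.00501% of protein-coding genes, which is RUNX1 alone, and at least 15 in replicate 2 to 0.0350%. The median over genes with a peak was 1 in each list. By the sum of absolute differences in 3 counts, taken over the 2 replicates (peaks in each list and overlapping peaks of replicate 1), the genes most like RUNX1 were PABPC1P2 and FOXP1, each at a distance of 2, CBLB at 5, LINC01091 at 6 and MTHFD1L at 7. FOXP1 had 11 and 16 peaks and CBLB 11 and 17. Per length, RUNX1 had 3.06 peaks of any assignment per 100 kb of RefSeq gene body in both replicates, where all protein-coding genes together had 0.492 and 1.08. On the same scale CBFB had 2.78 and 1.39, NFIX 0.968 and 2.90, and NFIC 0.913 and 2.74 in replicates 1 and 2. RUNX2 had 0.449 and 0.898 and NFIA 0 and 0.778, below the value of all genes in each list, while NFIB (0.222 and 1.33) and RUNX3 (0 and 1.52) were below it in replicate 1 alone. The NFIA values leave out its promoter peak, whose centres lay 18 bp and 11 bp before the RefSeq gene start.

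**Figure D3:**
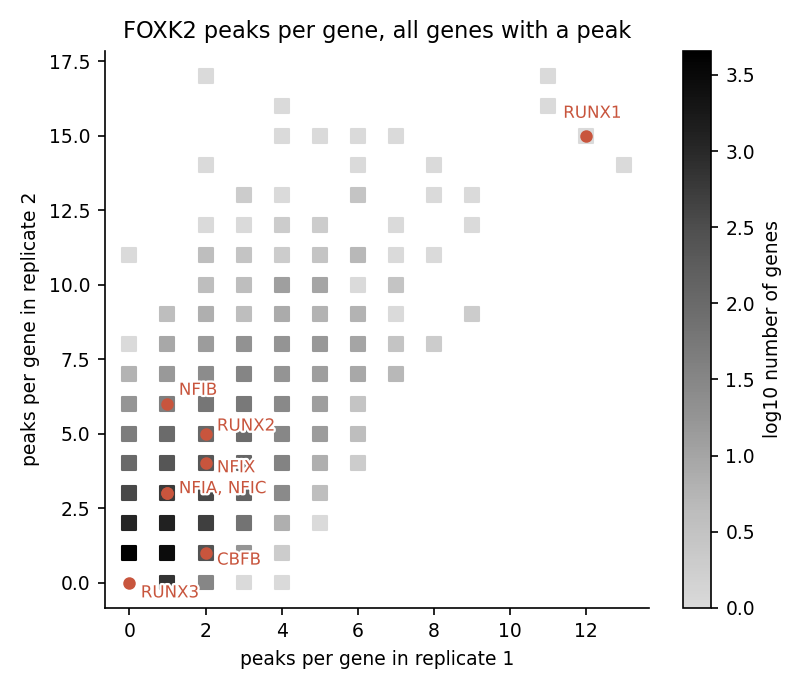
Peaks per gene in replicate 1 (horizontal axis) and replicate 2 (vertical axis) for all genes with a peak, with the number of genes at each pair of counts as grey shade on a log10 scale and the RUNX and NFI genes as red points. RUNX1, at 12 and 15, lies apart from the other members, which have at most 2 and 6, and RUNX3 is drawn at 0 and 0.

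CBFB, NFIX, NFIC and NFIB had 1 or 2 peaks each in replicate 1. Percentiles of their shared peaks lay between 36.9 and 60.8 there, and between 65.7 and 79.4 in the list of replicate 2. CBFB had 1 peak in both lists, in intron 3 of 5, 26702 bp from the TSS, with scores of 5.66 and 11.9 (percentiles 44.2 and 79.4). A peak of replicate 1 in CBFB intron 1, in a CpG island 434 bp from the TSS, had a score of 5.28 and no partner. Its focus ratio, the fraction of tags on the expected side of the peak centre, was 0.562, the lowest in the set, where the list median was 0.758.

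NFIX had a pair of peaks in both lists. The intergenic one, -10529 bp from the TSS, scored 6.79 and 11.2, and its centres were 141 bp apart, the largest shift in the set. The intronic one, 2155 bp downstream, scored 6.23 and 9.22 and held TGTTTAC. Its sequence, shown above, runs into a simple repeat, to which the replicate 1 list annotates the peak. Replicate 2 alone had 2 more NFIX peaks, both in intron 2 (percentiles 35.7 and 57.7). NFIC had 1 peak in both lists, 1089 bp from the TSS in intron 1 and in a CpG island, with scores of 5.28 and 9.67 (percentiles 36.9 and 68.4) and no TGTTTAC. A peak of replicate 2 on the promoter of NM_005597, at -395 bp, had a score of 5.5 (percentile 27.8) and no partner. NFIC also had a peak at 37679 bp in replicate 2 alone (percentile 5.64), with a TGTTTAC.

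NFIB, at 450 kb the longest gene of the set by RefSeq, had 1 peak in replicate 1 and 6 in replicate 2. The shared peak lay -25034 bp from the TSS of NM_001190738, where the deposited annotation calls it intergenic, although RefSeq has a longer NFIB form that starts further upstream, with scores of 5.28 and 9.52 (percentiles 36.9 and 67.5) and a TGTTTAC. The 5 others were intronic and weaker, at percentiles from 10.3 to 41.1, and the one at -65292 bp held TGTTTAC. None of the 10 RefSeq starts of NFIB in the promoter table had a peak centre within 1000 bp in either list.

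RUNX3 was the member without an assigned peak. The nearest replicate 1 peak was 154 kb from the gene, at the promoter of CLIC4. Replicate 2 did have a peak inside RUNX3, in intron 4 of 5 of NM_001031680, which the list assigned to the microRNA gene MIR6731 lying within it. That peak scored 9.37 (percentile 66.7), and the nearest replicate 1 peak centre was 170 kb away.

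In the lists as deposited, peaks of the set were recovered between replicates about as often as peaks in general. In replicate 1, 17 of 21 had a partner in the other list (81.0%, Wilson 95% interval 60.0% to 92.3%), against 74.9% of all peaks of that list. In replicate 2, 17 of 37 had one (45.9%, 31.0% to 61.6%), against 34.2%. The intervals hold both background values, and they cover counting error only. The 4 replicate 1 peaks without a partner had percentiles from 2.36 to 47.5, and the 20 of replicate 2 from 3.65 to 80.5. With lists of equal length, 76.2% of the set's peaks in replicate 1 and 80.0% in replicate 2 overlapped, against 60.0% of all peaks in each. Among the 17 pairs, 16 had a higher percentile in replicate 2 than in replicate 1, as did 89.9% of all 9343 pairs. The exception was the RUNX1 peak at -62370 bp (69.0 in replicate 1, 53.6 in replicate 2). The list of replicate 2 was longer (27281 peaks against 12471), so a higher percentile there does not show stronger binding. Ranks of the pairs moved in both directions. The NFIC peak went from rank 7370 in replicate 1 to 8342 in replicate 2, and the NFIA promoter peak from 651 to 616. The median shift between paired centres was 31 bp in the set and 29 bp over all pairs. Scores at or above the list median were found for 8 of 21 peaks in replicate 1 and 20 of 37 in replicate 2 (38.1% and 54.1%, against 52.5% and 50.7%), and scores in the top 10% for 2 and 3 peaks (9.52% and 8.11%, against 9.65% and 9.85%).

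**Figure D4:**
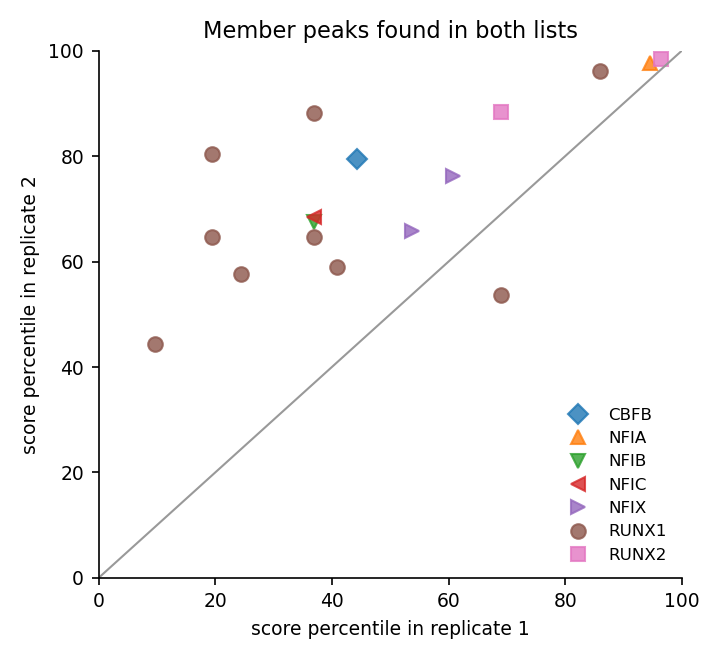
Score percentile in replicate 1 (horizontal axis) and in replicate 2 (vertical axis) of the 17 peaks of the set that overlap between lists, with the line of equality. All points except the RUNX1 peak at 69.0 and 53.6 lie above the line, and the strongest RUNX2 peak and the NFIA promoter peak lie at 94.5 or more on both axes.

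Most binding lay away from promoters, as it did over all peaks. Promoter peaks were 2 of 21 in replicate 1 (9.52%, Wilson 95% interval 2.65% to 28.9%) and 2 of 37 in replicate 2 (5.41%, 1.5% to 17.7%), against 21.7% and 18.0% of all peaks. The interval held the value of all peaks in replicate 1 and ended just below it in replicate 2. Introns held 10 and 18 peaks of the set (47.6% and 48.6%, against 39.0% and 40.6%) and intergenic sequence 9 and 17 (42.9% and 45.9%, against 34.1% and 36.5%). More than 10000 bp from the TSS lay 14 of 21 and 28 of 37 peaks (66.7% and 75.7%, against 57.1% and 62.1%). The Wilson intervals of the intron, intergenic and 10000 bp shares held the values of all peaks in both replicates. Beyond 100000 bp lay 4 and 10 peaks (19.0% and 27.0%, against 14.5% and 16.3%), all of RUNX1 or RUNX2. The detailed annotation placed 3 and 1 peaks in repeats (14.3% and 2.70%, against 19.2% and 21.7%). The Wilson interval of the repeat share held the value of all peaks in replicate 1 (4.98% to 34.6%). In replicate 2 it lay below that value (0.479% to 13.8%). RUNX1 supplied 12 of 21 and 15 of 37 peaks, and neighbouring peaks of a locus are not independent. The RefSeq promoter table gave 24 promoters for 7 of the members, with the proximal one alone for RUNX1, a single one for NFIC that is not the NM_005597 start, and none for CBFB, as windows from 250 bp before to 50 bp after each start. A peak centre lay within 1000 bp of 2 of these starts in replicate 1 (NFIA and RUNX1) and of 1 in replicate 2 (NFIA), against 12.9% and 22.6% of 35116 promoters. By the deposited distance to the nearest TSS, which also covers starts outside that table, 3 and 2 peaks of the set lay within 1000 bp. None of the 24 windows held TGTTTAC, which 3.42% of all windows held.

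The forkhead heptamer TGTTTAC was looked for on either strand in the 100 bp to each side of a peak's centre. It was in 5 of 21 peaks of replicate 1 (23.8%, Wilson 95% interval 10.6% to 45.1%) and 7 of 37 of replicate 2 (18.9%, 9.48% to 34.2%). All peaks of the lists held it in 30.5% and 28.2%. All 5 sites of replicate 1 were found again in replicate 2, in RUNX2 (2 sites), RUNX1, NFIX and NFIB. By assigned gene, RUNX1 had it in 1 of 12 and 1 of 15 peaks and RUNX2 in 2 of 2 and 2 of 5. The peaks inside RUNX1 that were assigned to RUNX1-IT1 had it in 2 of 2 and 3 of 4, so the count for the locus depends on the assignment, and differences between genes were not tested. The core TGTTTA, which is part of TGTTTAC, was in 9 of 21 and 16 of 37 peaks (42.9% and 43.2%, against 44.8% and 43.4%).

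Motifs of other factors were searched in the same windows. The AP-1 site TGACTCA, whose reverse complement is TGAGTCA, was in 4 of 21 and 9 of 37 peaks (19.0% and 24.3%, against 16.4% and 16.6%). Of these, 3 of replicate 1 and 6 of replicate 2 were RUNX1 peaks. The RUNX core TGTGGT was in 0 of 21 peaks of replicate 1, which allows a share of up to 14.3% when the limit for a count of 0 is set at 3 counts (Wilson upper bound 15.5%), and in 5 of 37 of replicate 2 (13.5%), against 16.7% and 17.8% of all peaks. Of those 5 peaks, 3 belonged to NFIB. The NFI dimer site, TTGGC followed after any 5 bases by GCCAA, was in none of the peaks of the set, which allows shares of up to 14.3% and 8.11% by the same limit of 3 counts (Wilson upper bounds 15.5% and 9.41%), and in 0.152% and 0.150% of all peaks.

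**Figure D5:**
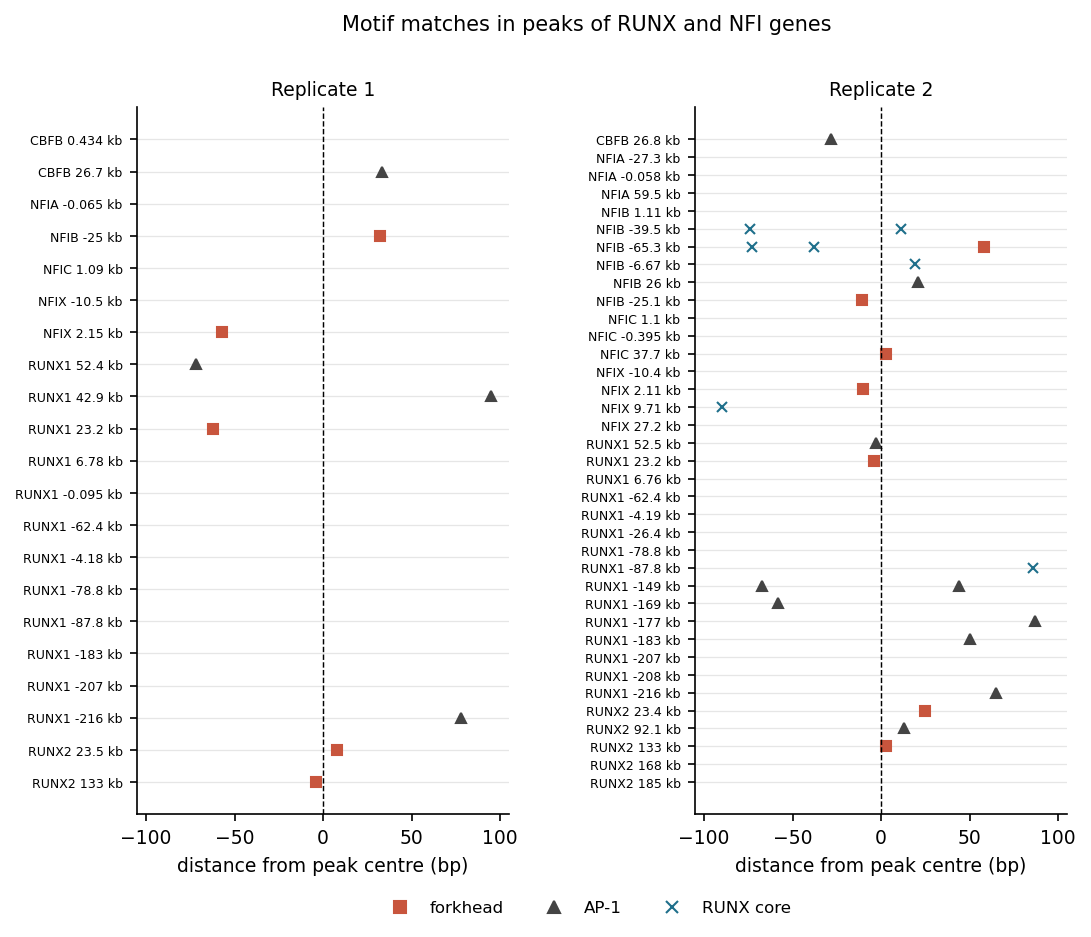
Positions of TGTTTAC (red squares), TGACTCA (dark triangles) and TGTGGT (blue crosses) by distance from the peak centre in bp (horizontal axis) in each peak of the set, labelled by gene and by distance to the nearest TSS in kb, for replicate 1 (left) and replicate 2 (right). Only matches within 100 bp of the centre are drawn; those of TGTTTAC in RUNX2 lie within 25 bp of the centre in both lists, and RUNX1 holds 3 of the 4 peaks with TGACTCA in replicate 1 and 6 of 9 in replicate 2.

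Cofactor and target genes of these factors had fewer peaks per gene than RUNX1 in each list, although TLE1 came close in replicate 2. Of 15 RUNX cofactor genes, 8 had a peak in both lists (53.3%, against 28.7% of protein-coding genes), and their median gene length was 106 kb. Among them were the corepressor genes TLE4 with 3 and 4 peaks, TLE1 with 3 and 13, TLE3 with 5 and 4, and TLE2 with 1 and 1. For TLE1 and TLE3, only 2 peaks each overlapped between lists. The others were the transcription corepressor gene CBFA2T2 with 2 and 4 peaks, CREBBP with 1 and 3, and KAT6A and KAT6B with 1 and 2 each. CBFA2T3, EP300, HIPK1 and TLE5 had none. Whether gene length or the nearest-TSS rule affected the share of cofactor genes with a peak was not tested. Of 12 genes known as RUNX or NFI targets, 4 had a peak in both lists (33.3%, near the 28.7% of protein-coding genes): HES1, BCL2L11, MMP13 and EZH2. The best HES1 peak stood at percentiles of 99.4 and 99.7, while the EZH2 peaks, at 2.36 and 41.1, did not overlap.

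Other transcription factor families were counted in the same way, and their genes were shorter. Of 28 ETS factor genes, 14 had a peak in both lists, where 28.7% of protein-coding genes did, with 31 and 62 peaks in all. Of 18 Kruppel-like factor genes the share was 61.1%, with 25 and 49 peaks, and of 10 AP-1 subunit genes 40.0%, with 7 and 17 peaks. Their median gene lengths were 28.8 kb, 23.4 kb and 7.84 kb. No gene of these families had more than 5 peaks in replicate 1 or 10 in replicate 2. The differences between families were not tested.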

How the data were processed

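FOXK2 ChIP-seq peak lists of OVCAR5 cells (2 biological replicates of 1 condition) were used as deposited. According to the submitters' notes and the study's methods, the authors aligned single-end reads to hg38 with Bowtie2 2.2.6 and called peaks with HOMER 4.10, one list per replicate. The study also computed enrichment of peaks over input, but whether input entered the HOMER calls behind these lists is not given in the sources used here. The deposited peak score is HOMER's own, and the deposited focus ratio is a fraction. Peak width was fixed per list (210 bp and 256 bp), and each peak was assigned by the authors to its nearest TSS.

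Score percentile is the share of peaks in a list with a lower score. It depends on the length of the list, which differed between replicates. Scores below 10 were whole multiples, within 0.0055, of 0.18864 in replicate 1 and 0.14872 in replicate 2, and the weakest peaks held 16 and 21 such steps; Poisson intervals take 1 step as 1 tag, which the sources do not state. Overlap meant at least 1 bp. Intervals of shares are Wilson 95% intervals, and the limit for a count of 0 is 3 counts of the total. Gene bodies, transcript starts and promoter windows came from RefSeq (GRCh38.p14), annotated UTRs from GENCODE release 44, and bases from hg38, the build named in the file headers. The scripts for overlaps and motifs recovered planted answers when tested on simulated data. With 1 condition, no comparison between conditions was possible and no test was made. The genes described were all 8 members, with the best peak of each, promoter peaks, and shared peaks in the top 10% of scores. Members and lists were chosen with earlier results of these data known. Alternatives tried were higher-scoring peaks, limits of 10000 and 100000 bp on distance, gene bodies, equal list lengths, promoter peaks, stricter overlap, other motif windows and cores, and leaving out a replicate or RUNX1. Computation used Python 3.11.15 (pandas 2.3.3, numpy 2.4.6, pysam 0.24.0, scipy 1.17.1), and plots matplotlib 3.10.9.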

Additional observations from a re-analysis of the deposited data

How the results depend on the processing

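No paired analysis was possible because both lists come from a single condition and no test was made. Of 46 alternative values, 35 stayed within 1.5 times the reported count or within the interval of the reported share, and 11 moved. With scores at or above the list median, peaks of the set numbered 8 in replicate 1 and 20 in replicate 2, members with a peak in both fell from 7 to 4 (protein-coding genes from 28.7% to 17.8%), and TGTTTAC was in 50% of the 8 peaks of replicate 1, against 35.1% of all peaks so chosen. Within 10000 bp of the TSS there were 7 and 9 peaks, and 4 members with a peak in both (17% of protein-coding genes), and with promoter peaks only 1 member, NFIA (9.34%). With lists of equal length, replicate 2 held 20 peaks of the set, 80.0% of them overlapped, against 60.0% of all peaks under that setting. The core TGTTTA in place of TGTTTAC gave 43.2% in replicate 2. Leaving out either replicate left 7 members with a peak. Members with a peak in both lists have one in each, so this count could not fall and shows no stability, although it is among the 35. Protein-coding genes with a peak were 31.4% in replicate 1 alone and 51.9% in replicate 2 alone. Counting by GENCODE gene body and leaving out RUNX1 were chosen after seeing the data. Without RUNX1, TGTTTAC was in 44.4% of 9 and 27.3% of 22 peaks, against 30.5% and 28.2% of all peaks. By GENCODE gene body there were 21 and 49 peaks, and by RefSeq gene body, which was planned, 14 and 27. Whether a peak called in 1 list had signal below the threshold in the other could not be read from peak lists.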
